A study of Mus musculus with 16 samples.

Results

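The circadian clock genes described here are Arntl, Npas2, Per1, Per2, Per3, Cry1, Nr1d1, Dbp, Ciart and Bhlhe41, chosen by gene symbol as activators, repressors and direct outputs of the clock. They are 10 of the 23222 genes in the deposited tables, and all 10 were present in each of the 4 tables. RNA was measured by bulk RNA-seq in myofibers, the multinucleated contractile cells of skeletal muscle, from the extensor digitorum longus, a fast hindlimb muscle, after the mononucleated cells attached to the fibres had been removed. All mice were male C57BL/6. Old runners (22 months) and young runners (4 months) had a running wheel for use at will over 5 weeks, and old controls (22 months) and young controls (4 months) had no such treatment in the labels. Each of the 4 groups held 4 libraries, called O1ex to O4ex in old runners, Oc1 to Oc4 in old controls, Y1ex to Y4ex in young runners and Yc4, Yc5, Yc7 and Yc8 in young controls. Nothing in the labels states that each library is from its own animal, so p-values measure only the spread between these libraries, which may be technical. The labels also give no time of day at which muscle was taken, nor the time since the last bout of running, so group and time of day cannot be told apart in any comparison of these genes.

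The circadian clock is a transcriptional loop that runs in nearly every cell. Arntl (BMAL1) pairs with CLOCK or NPAS2 and activates genes that carry an E-box, among them the Per and Cry genes, Nr1d1, Dbp, Ciart and Bhlhe41, and the protein products of the Per and Cry genes then silence the pair. Nr1d1 (REV-ERBα) represses Arntl through the ROR response element (RRE). Arntl mRNA and E-box outputs such as Dbp peak at opposite phases of the day, in skeletal muscle as elsewhere.

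Libraries held between 30.7 and 67.4 M reads counted in genes, with a median of 46.9 M. Levels are given as normalised reads, which are the whole reads recovered from the deposited log2 values divided by 1 size factor per library, on the same scale in all 16 libraries. Muscle fibre markers were the most abundant marker list in every group, with a summed level over 6 genes between 2625250 and 5664300 normalised reads. The summed level of 9 markers of fibro-adipogenic progenitors, connective tissue cells of muscle, was 1870 to 3960 normalised reads in old runners, 210.4 to 1783 in old controls, 4000.2 to 11960 in young runners and 60.6 to 580.3 in young controls. The ranges of runners and controls did not overlap at either age. Pdgfra was at 0 in all libraries of old runners and of old controls, and Mfap5 was at 0 in all libraries of young controls. Smooth muscle and pericyte markers (6 genes) summed to 621.1 to 2899 normalised reads in old runners, 258.9 to 1465 in old controls, 692.5 to 2909 in young runners and 52.3 to 491.3 in young controls. Their ranges overlapped in old fibres and not in young fibres. Endothelial markers (8 genes) summed to 881.2 to 4100.5 in old runners, 639.3 to 4724 in old controls, 1135 to 5329 in young runners and 261.4 to 1089 in young controls. Satellite cell markers (6 genes) summed to 4776 to 5225 in old runners, 2019 to 5524 in old controls, 6205 to 7507 in young runners and 4138 to 5921 in young controls. For both lists the old ranges overlapped and the young ranges, the comparison in which Ciart and Bhlhe41 passed, did not. The part of these cells in the clock gene results was not tested, and in bulk RNA fewer cells of a type and less RNA per cell cannot be told apart.

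Promoter sequences from RefSeq (build GRCm38.p6) ran from 250 bases before to 50 bases after the annotated start. Sequences were found for 9 of the 10 genes, all but Per2, with 11 promoters in all. They were searched on both strands for the E-box (CACGTG), its E′-box variant (CACGTT), the D-box bound by DBP (TTATGTAA or TTACGTAA), the RRE (TAGGTCA or TGGGTCA) and the cAMP response element (TGACGTCA). The Ciart promoter held 3 E-boxes, which began 116, 58 and 44 bases before the start. The Bhlhe41 promoter held 1, at 153 bases before the start, the Per1 promoter 1 at 166 bases and the Cry1 promoter 1 at 60 bases. An E-box was present in 7.15% of 32851 mouse promoters of this length, and 3 or more were present in 29 of them (0.0883%). The E′-box was found in Cry1 and Nr1d1 and in 4.68% of all promoters. The D-box was found only in Per3 among the 9 genes, in 2 copies that began 205 and 158 bases before the start, while 1.06% of all promoters held at least 1 copy. The RRE was found in a promoter of Arntl and in 6.45% of all promoters. No cAMP response element lay in the 11 windows, against 1.79% of all promoters with one. None of the motifs lay in the windows of Dbp and Npas2. These are matches of letters and not sites of binding. The sequences shown are those of Ciart and Bhlhe41, whose mRNA differed between young runners and young controls, and of Per3 and Arntl. Per3 holds the D-box matches and Arntl the RRE match. Matched motifs are in capitals, 5′ to 3′ on the strand of the gene.
Ciart (chr3:95882179-95882478, minus strand): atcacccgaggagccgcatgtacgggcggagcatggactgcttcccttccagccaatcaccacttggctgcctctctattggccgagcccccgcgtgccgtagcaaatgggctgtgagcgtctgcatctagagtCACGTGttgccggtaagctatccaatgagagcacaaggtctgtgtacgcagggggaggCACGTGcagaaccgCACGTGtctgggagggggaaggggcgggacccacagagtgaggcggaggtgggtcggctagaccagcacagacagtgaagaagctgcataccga
Bhlhe41 (chr6:145865371-145865670, minus strand): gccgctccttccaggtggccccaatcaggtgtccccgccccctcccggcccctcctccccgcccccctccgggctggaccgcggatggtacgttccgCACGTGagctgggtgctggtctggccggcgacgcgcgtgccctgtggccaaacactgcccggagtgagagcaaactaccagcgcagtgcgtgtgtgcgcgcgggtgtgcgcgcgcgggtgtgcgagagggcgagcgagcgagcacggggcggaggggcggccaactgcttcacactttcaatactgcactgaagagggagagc
Per3 (chr4:151044616-151044915, minus strand): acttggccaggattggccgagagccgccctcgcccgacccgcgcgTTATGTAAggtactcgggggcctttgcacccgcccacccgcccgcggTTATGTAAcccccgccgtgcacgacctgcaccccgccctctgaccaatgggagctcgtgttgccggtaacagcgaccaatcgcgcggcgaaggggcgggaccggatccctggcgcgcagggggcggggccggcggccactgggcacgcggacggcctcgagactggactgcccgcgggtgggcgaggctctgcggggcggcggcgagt
Arntl (chr7:113207261-113207560, plus strand): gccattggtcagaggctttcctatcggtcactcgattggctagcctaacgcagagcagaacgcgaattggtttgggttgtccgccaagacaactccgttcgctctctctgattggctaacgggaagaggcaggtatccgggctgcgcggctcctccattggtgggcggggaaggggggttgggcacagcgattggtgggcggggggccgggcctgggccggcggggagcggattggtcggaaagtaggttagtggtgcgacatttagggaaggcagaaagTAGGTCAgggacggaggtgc

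Arntl (chr7:113207465-113314126, plus strand, mm10 with GENCODE M21, as for the genes below), the activator, had higher means in runners than in controls at both ages, with overlapping values. Its normalised reads were 1255, 2096, 2420 and 1751 in old runners (O1ex to O4ex), 652.7, 478.1, 1322 and 1926 in old controls (Oc1 to Oc4), 2546, 2250.1, 1855 and 2239 in young runners (Y1ex to Y4ex) and 1566, 2280, 1093 and 1540.4 in young controls (Yc4, Yc5, Yc7 and Yc8). The 2 lowest values of all 16 libraries were those of old controls Oc1 and Oc2. The young runners were the least variable group, with a coefficient of variation (CV) of 12.8%, against 26.5% in old runners, 60.6% in old controls and 30.3% in young controls. The difference of old runners minus old controls was 0.72 ± 0.30 on the deposited log2 scale (SE, adjusted p = 0.249, limma), and that of young runners minus young controls was 0.44 ± 0.20 (adjusted p = 0.297, limma). Npas2 (chr1:39193731-39363236, plus strand), which can take the place of CLOCK beside BMAL1, was near the limit of detection. It had 50.3, 72.3, 127.3 and 6.13 normalised reads in old runners, 0, 0.881, 21.6 and 18.6 in old controls, 0, 52.8, 1.12 and 42.0 in young runners and 4.11, 107.0, 6.31 and 61.0 in young controls. Every group held libraries with fewer than 10 reads beside libraries with more, and Npas2 passed the filter on low values in none of the 4 tables.

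The Period and Cryptochrome genes, whose proteins repress BMAL1, did not pass the test in any comparison. Per1 (chr11:69095217-69109960, plus strand) averaged 1469 ± 338 normalised reads in old runners, 1908 ± 383 in old controls, 1720 ± 460 in young runners and 1913 ± 510 in young controls (SD, n = 4 each). Per2 (chr1:91415982-91459324, minus strand) ranged between 535.7 and 2755 normalised reads, and its highest value was that of old control Oc1, against 667.3 to 953.7 in the other 3 old controls and 618.4 to 1313 in old runners. Young runners had 638.7 to 1347 and young controls 535.7 to 1309 normalised reads of Per2. Per3 (chr4:151003652-151044665, minus strand), less abundant in reads per kb of exon than every other member except Npas2, had 78.8, 57.7, 294.0 and 93.0 normalised reads in old runners, 433.9, 272.1, 125.9 and 86.6 in old controls, 271.7, 25.9, 50.6 and 218.8 in young runners and 83.1, 452.9, 801.1 and 375.7 in young controls. In young fibres 3 of the 4 controls lay above every runner, and the fourth control, Yc4, lay among the runners. The Per3 difference of young runners minus young controls was -0.96 ± 0.45 on the deposited scale (SE, adjusted p = 0.303, limma). Cry1 (chr10:85131700-85185064, minus strand) averaged 1357 ± 552 normalised reads in old runners, 1721 ± 744 in old controls, 1445 ± 259 in young runners and 1796 ± 318 in young controls (SD, n = 4 each). Per1 and Cry1 had lower means in runners at both ages, with overlapping values throughout.

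Nr1d1 (chr11:98767932-98775333, minus strand), the repressor of Arntl, was the most abundant of the 10 genes per length. Its mean over the 16 libraries was 3463 normalised reads per kb of exon, followed by Ciart with 1006, Dbp with 760, Cry1 with 473, Bhlhe41 with 364, Per1 with 311, Arntl with 227, Per2 with 180, Per3 with 24.2 and Npas2 with 7.46. Nr1d1 had 11573, 9179, 11172 and 9229 normalised reads in old runners, 7855, 9430.0, 9963 and 11192 in old controls, 13503, 14354, 10654 and 14679 in young runners and 11621, 9372, 8289 and 8444 in young controls. Its young runners stood above 3 of the 4 young controls, and the fourth, Yc4, lay above young runner Y3ex. The difference of young runners minus young controls was 0.48 ± 0.16 on the deposited scale (SE, adjusted p = 0.175, limma), and that of old runners minus old controls was 0.10 ± 0.14 (adjusted p = 0.744, limma). Of the exon bases of Nr1d1, 8.55% also lie in exons of Thra on the opposite strand, and the library chemistry keeps no strand, so reads there cannot be assigned to 1 of the genes. Thra itself averaged 845.4 ± 79.7 normalised reads in old runners, 1085 ± 181 in old controls, 913.0 ± 179 in young runners and 1036 ± 238 in young controls (SD, n = 4 each).

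Dbp (chr7:45705088-45710203, plus strand), a transcription factor that binds the D-box and a direct output of BMAL1, had lower means in runners than in controls at both ages. It had 2101, 1200.5, 1139 and 1925 normalised reads in old runners, 5074, 5212, 4631 and 2167 in old controls, 834.2, 800.7, 1196 and 1180.2 in young runners and 1767, 974.9, 3181 and 3007 in young controls. The old groups did not overlap, although the highest old runner and the lowest old control, Oc4, lay close together. In young fibres control Yc5 lay below 2 of the 4 runners. The mean of old runners was 0.373 times that of old controls, and the mean of young runners was 0.449 times that of young controls. The difference of old runners minus old controls was -1.20 ± 0.27 on the deposited scale (SE, adjusted p = 0.0989, limma) and that of young runners minus young controls was -0.92 ± 0.32 (adjusted p = 0.191, limma), so neither age passed the threshold on its own. Of the exon bases of Dbp, 18.01% are shared with exons of Sphk2 on the opposite strand. Sphk2 averaged 966.7 ± 31.1 normalised reads in old runners, 672.7 ± 206 in old controls, 1087 ± 500 in young runners and 800.1 ± 193 in young controls (SD, n = 4 each), a difference opposite in sign to that of Dbp, with an adjusted p of 0.148 in the 16-library limma fit.

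Ciart (CHRONO, chr3:95878503-95882251, minus strand), which binds BMAL1 and represses it and whose promoter holds the 3 E-boxes shown above, had lower means in runners at both ages. It had 1069, 798.4, 1835 and 2579 normalised reads in old runners, 4186, 5342, 3888 and 2206 in old controls, 700.9, 1165, 983.5 and 899.2 in young runners and 2716, 2263, 3090.2 and 2667 in young controls. The young groups were far apart, with 700.9 to 1165 normalised reads in young runners and 2263 to 3090.2 in young controls, whereas old runner O4ex lay above old control Oc4. The mean of old runners was 0.402 times that of old controls, and that of young runners 0.349 times that of young controls. Ciart was lower in young runners than in young controls, by 1.36 ± 0.18 on the deposited log2 scale (SE, adjusted p = 0.0190, limma). Its difference of old runners minus old controls was -1.16 ± 0.31 (adjusted p = 0.127, limma). In the young comparison the adjusted p of Ciart passed the threshold without Y1ex, Y3ex or Yc4, and came to 0.0985 without Y2ex, 0.0691 without Y4ex, 0.0544 without Yc5, 0.0796 without Yc7 and 0.0538 without Yc8 (limma). The antisense gene C920021L13Rik overlaps Ciart but shares no exon base with it. It had 13.4 ± 7.56 normalised reads in old runners, 38.1 ± 16.5 in old controls, 7.87 ± 0.906 in young runners and 26.7 ± 10.9 in young controls (SD, n = 4 each).

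Bhlhe41 (DEC2, chr6:145858243-145865558, minus strand), which represses E-box genes by competing with BMAL1 and its partner, had a different pattern: it was high in young controls and lower in the other 3 groups. It had 1461, 1442, 2094 and 1480.2 normalised reads in old runners, 1642, 857.7, 1856 and 1529 in old controls, 1789, 1213, 1044 and 1697 in young runners and 2697, 7125, 7452 and 3806 in young controls. Every young control lay above every library of the other groups, with a CV of 45.1% among the young controls. The mean of young runners was 0.272 times that of young controls, that of old runners was 1.10 times that of old controls, and that of old controls was 0.279 times that of young controls. Bhlhe41 was lower in young runners than in young controls by 1.66 ± 0.31 on the deposited scale (SE, adjusted p = 0.0474, limma). This call was kept without Yc4 (adjusted p = 0.0103, limma) and lost without each of the other 7 libraries of the comparison, with an adjusted p between 0.0745 and 0.167 (limma), and it was also lost without the filter on low values and with voom. Gm43909, a predicted gene on the opposite strand, shares 19.0% of the exon bases of Bhlhe41. It averaged 4.99 ± 6.76 normalised reads in old runners, 2.27 ± 2.73 in old controls, 8.44 ± 7.61 in young runners and 20.1 ± 13.3 in young controls (SD, n = 4 each).

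**Figure D1:**
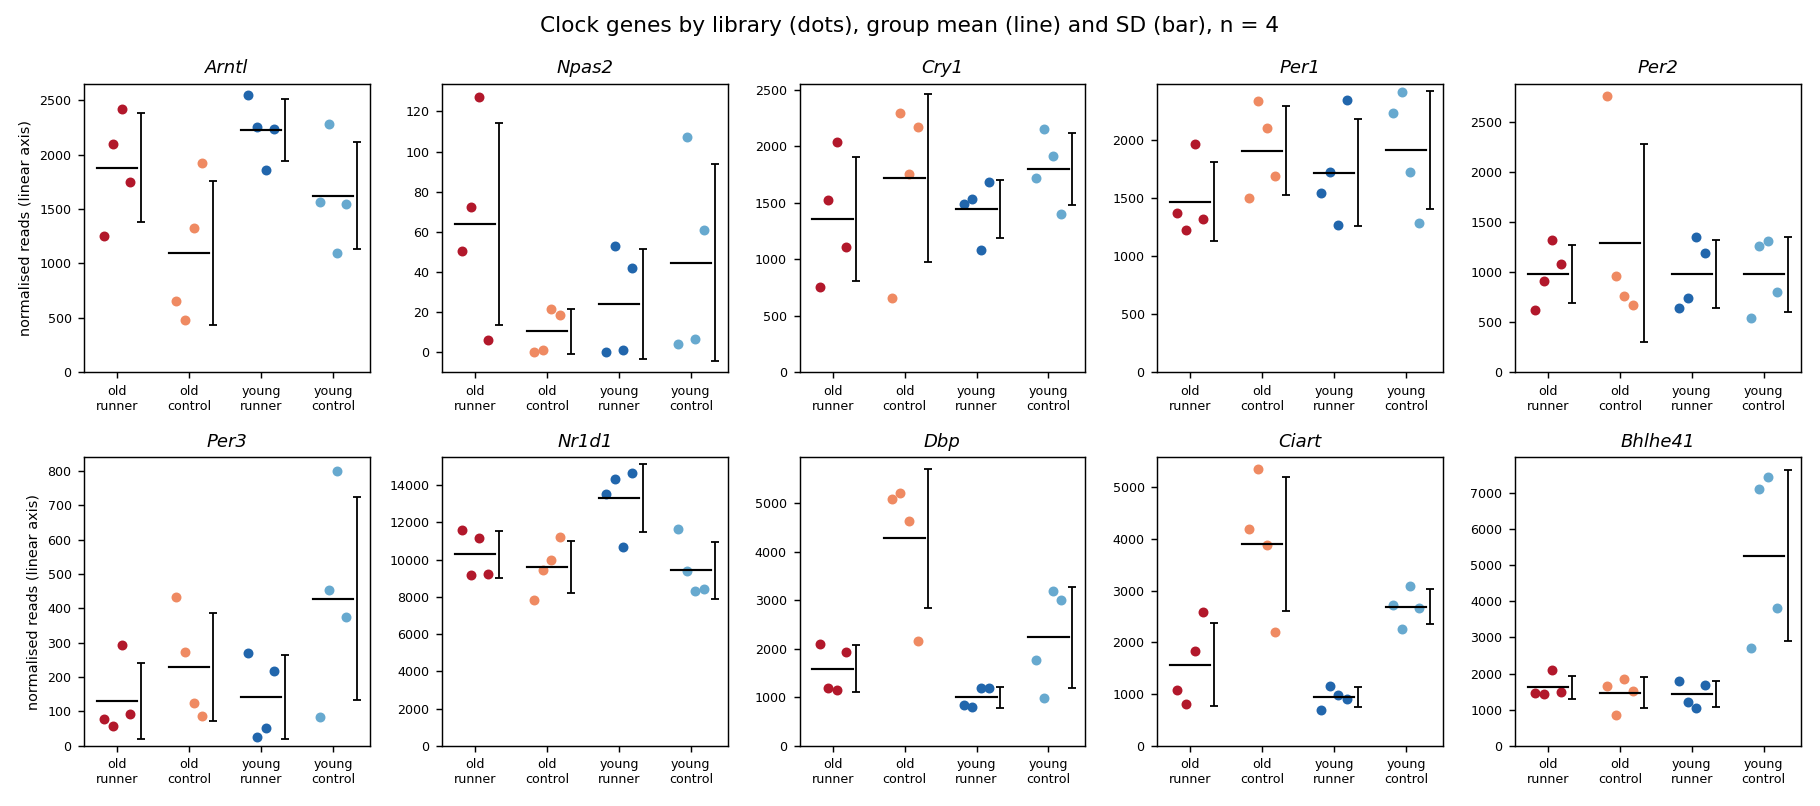
Normalised reads (vertical, linear) of the 10 clock genes in each library (dots), for old runners, old controls, young runners and young controls, with the group mean (line) and SD (bar), n = 4 each. Ciart in young controls lay at 2263 to 3090.2, above all young runners, and Bhlhe41 in young controls lay at 2697 to 7452, above all other libraries.

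Runners were first compared with controls at each age, where group and time of day cannot be told apart. In old fibres 0 of the 9 clock genes tested passed an adjusted p of 0.05 by limma, where 0.128% of the 9379 genes tested passed. At an unadjusted p under 0.05 there were 3 of the 9 and 17.4% of all genes tested. Voom on the recovered reads also called 0 of them. The groups did not overlap for 1 of the 9 genes (Dbp), against 10.2% of all genes tested. In young fibres 2 of 9 passed (Ciart and Bhlhe41, both lower), where 0.762% of the 10624 genes tested passed. The groups did not overlap for the same 2 genes, against 11.5% of all genes. The median difference over the 9 genes was -0.23 in old fibres and -0.28 in young fibres on the deposited log2 scale, against 0.03 and 0.01 over all genes tested.

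With both ages averaged in 1 limma voom fit of the 16 libraries, 2 of the 10 genes passed, where 7.42% of the 11402 genes tested passed. Ciart fell by 1.46 ± 0.23 on the log2 scale of reads (SE, 95% interval -1.96 to -0.96, adjusted p = 0.00379, limma) and Dbp by 1.26 ± 0.27 (95% interval -1.84 to -0.68, adjusted p = 0.0156, limma). Both passed in all 21 alternatives of this fit, among them the removal of each of the 16 libraries, with an adjusted p of at most 0.0117 for Ciart and 0.0449 for Dbp (limma). Arntl had a difference of 0.78 ± 0.23 (SE, adjusted p = 0.0518, limma), and passed in 5 of the 21 alternatives, with at least 200 reads and without O1ex, Oc4, Y3ex or Yc5. Bhlhe41 had a difference of -0.80 ± 0.24 (adjusted p = 0.0550, limma, passed in 6 of 21), and Nr1d1 of 0.30 ± 0.11 (adjusted p = 0.0910, limma, passed in 2 of 21). The values averaged over ages are on another scale than those of each age and need not lie between them. The intervals of Per1 (-0.61 to 0.11), Cry1 (-0.77 to 0.27) and Per2 (-0.70 to 0.54) spanned 0, and those of Per3 (-2.99 to 0.04) and Npas2 (-1.76 to 3.99) were wide.

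**Figure D2:**
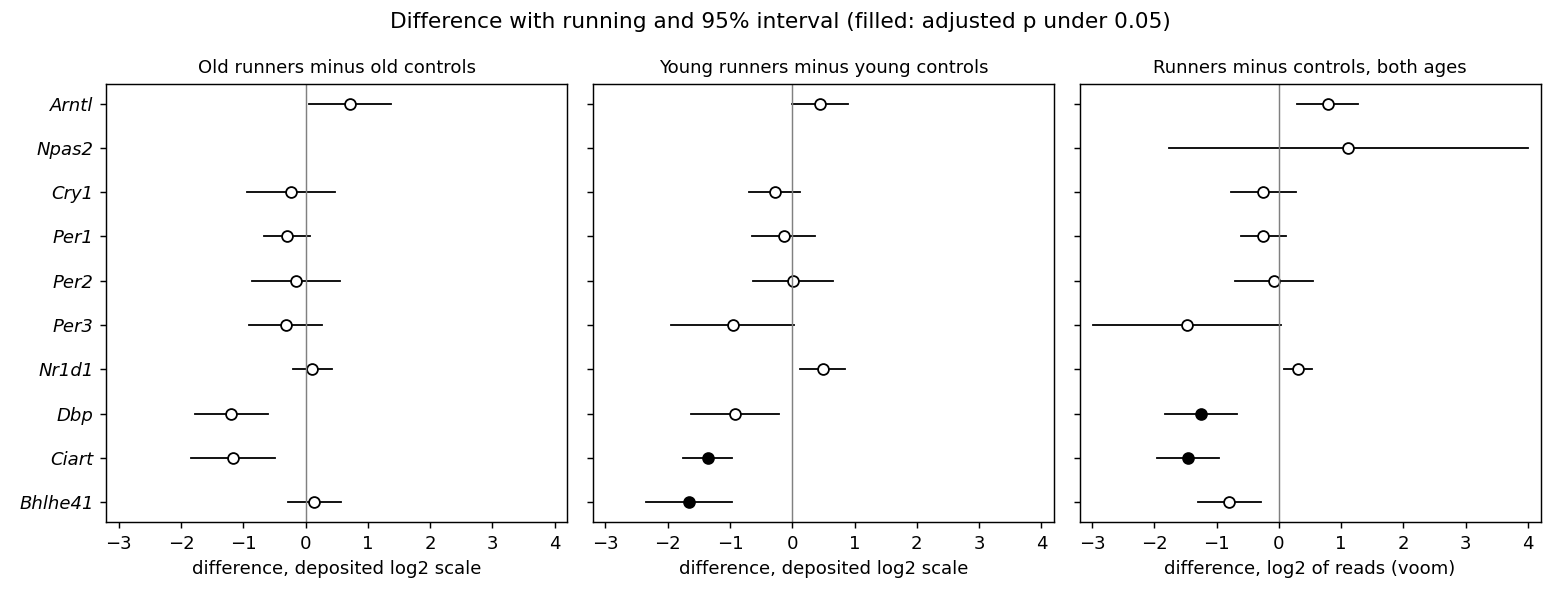
Difference of runners minus controls (horizontal) for each clock gene, with its 95% interval, in old and in young fibres on the deposited log2 scale and averaged over both ages on the log2 scale of reads, where filled points have an adjusted p under 0.05 (limma). Ciart lay at -1.16, -1.36 and -1.46 and Dbp at -1.20, -0.92 and -1.26 in the 3 panels, while Bhlhe41 lay at 0.14 in old and -1.66 in young fibres.

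A possible difference in the running effect between the ages was tested in the same 16-library fit. None of the 10 genes and 0.0% of the 11402 genes tested passed (limma), with 1 of 10 and 779 of 11402 at an unadjusted p under 0.05. A limma fit of the deposited values with 1 mean per group, in which each group came from 1 table, also called 0 genes. It had 721 genes at an unadjusted p under 0.05. The 1 clock gene was Bhlhe41, whose running difference in old minus that in young fibres was 2.02 ± 0.48 on the log2 scale (SE, 95% interval 0.99 to 3.04, unadjusted p = 0.000698, adjusted p = 0.680, limma). For Ciart this difference was 0.11 (95% interval -0.88 to 1.11) and for Dbp -0.41 (95% interval -1.57 to 0.75). Both intervals spanned 0, and they reached up to 1.11 for Ciart and down to -1.57 for Dbp.

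Age was compared within each activity. In controls 0 of 9 clock genes passed by limma, where 0.112% of 9831 genes passed, and voom also called 0. At an unadjusted p under 0.05 there were 2 of the 9 and 11.2% of all genes. The groups did not overlap for 1 of 9 (Bhlhe41), against 7.0% of all genes. The Bhlhe41 difference of old minus young controls was -1.55 ± 0.32 on the deposited scale (SE, adjusted p = 0.110, limma), and passed only without Yc4 among the 13 alternatives (adjusted p = 0.0246, limma). Dbp had 4271 ± 1424 normalised reads in old controls and 2232 ± 1048 in young controls (SD, n = 4 each), a difference of 0.91 ± 0.35 (SE, adjusted p = 0.366, limma). Ciart had 3905 ± 1295 in old controls and 2684 ± 338 in young controls (SD, n = 4 each), a difference of 0.46 ± 0.23 (SE, adjusted p = 0.487, limma). In runners 0 of the 8 genes tested passed by limma, where 0.0213% of 9387 genes passed, and voom called 0. At an unadjusted p under 0.05 there were 2 of the 8 (Dbp, 0.50 ± 0.19, and Nr1d1, -0.35 ± 0.14, SE) and 4.91% of all genes. No clock gene had groups without overlap in runners, against 3.38% of all genes. With both activities averaged, 0 of 10 passed, where 0.351% of 11402 genes passed (limma), with 4 of 10 and 10.8% of all genes at an unadjusted p under 0.05. Bhlhe41 passed without Yc4 (adjusted p = 0.0453, limma). The old controls enter both the running comparison in old fibres and the age comparison in controls, and the young controls likewise, so these differences are not independent of each other.

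Phase-opposed genes were then compared library by library. Over the 16 libraries Arntl and Dbp ran in opposite directions on the scale of log2 normalised reads plus 1 (Pearson r = -0.876, p = 1e-05, adjusted p = 9e-05; Spearman rho = -0.921, p = 2e-05, adjusted p = 0.00018). These are 2-sided permutation tests with 100000 permutations, adjusted over the 9 relations of Arntl with the other genes, and 1e-05 is the smallest p they can give. With the mean of each group removed and permutation within groups the relation held (r = -0.767, p = 4e-05, adjusted p = 0.00036), as it did without the 2 libraries farthest from the Arntl median, old controls Oc1 and Oc2 (r = -0.860, permutation p = 0.00012). Arntl and Ciart also ran in opposite directions (r = -0.718, p = 0.00059, adjusted p = 0.00266; rho = -0.741, p = 0.00155, adjusted p = 0.00698, permutation). That relation did not pass with the group means removed (r = -0.459, p = 0.148, adjusted p = 0.412, permutation) or, after adjustment, without Oc1 and Oc2 (r = -0.555, p = 0.0409, adjusted p = 0.184, permutation). Old runner O1ex, with 1255 normalised reads of Arntl and 1069 of Ciart, was low in both. Arntl and Nr1d1 had r = 0.557 (p = 0.0234, adjusted p = 0.0701, permutation; rho = 0.518, p = 0.0438, adjusted p = 0.131), and Arntl and Npas2 r = 0.503 (p = 0.0436, adjusted p = 0.0980, permutation; rho = 0.415, p = 0.111, adjusted p = 0.249). The other 5 relations had r between -0.325 (Per3) and 0.214 (Cry1), with rho between -0.182 and 0.135 and unadjusted permutation p of at least 0.224. Levels in libraries of this kind can vary together with amplification and depth as well as group, and correlations over them are not a time course.

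**Figure D3:**
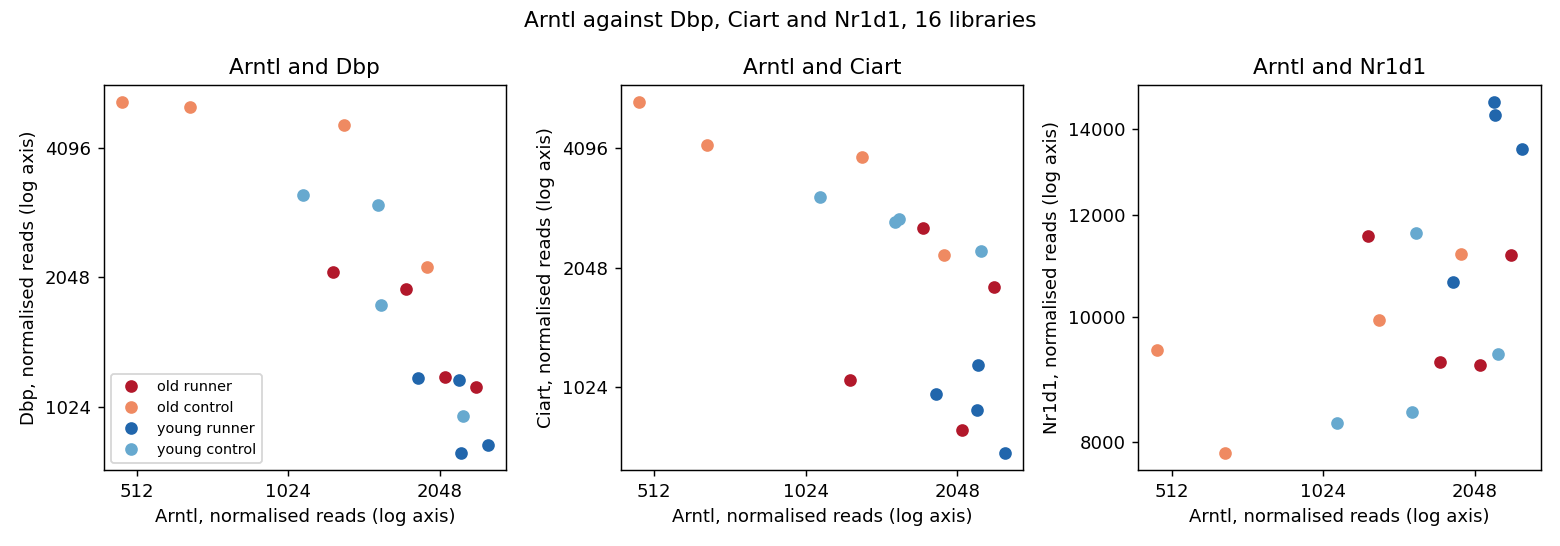
Normalised reads of Dbp, Ciart and Nr1d1 (vertical, log axes) against those of Arntl (horizontal, log axis) in the 16 libraries, coloured by group. Dbp fell along Arntl (r = -0.876), Ciart did so with old runner O1ex off the trend (r = -0.718), and Nr1d1 leaned the other way (r = 0.557).

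Among the outputs themselves, Dbp and Ciart moved together (r = 0.820 over 16 libraries, 0.457 with group means removed), whereas Nr1d1, which is likewise activated through E-boxes, went against both (r = -0.652 with Dbp and -0.645 with Ciart, and -0.432 and -0.230 with group means removed). Per1 went with Cry1 (r = 0.643, and 0.602 with group means removed) and Per3 with Bhlhe41 (r = 0.636, and 0.601 with group means removed). These pairs were picked from all pairs of members after their values were seen and carry no test.

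The balance of output to activator was then read within each library. Dbp reads per Arntl read were 1.67, 0.573, 0.471 and 1.10 in old runners, 7.77, 10.9, 3.50 and 1.13 in old controls, 0.328, 0.356, 0.645 and 0.527 in young runners and 1.13, 0.428, 2.91 and 1.95 in young controls. The 4 young runners spanned a narrow band and the old controls a wide one, with Oc4 inside the range of old runners and young control Yc5 inside that of young runners. Ciart reads per Arntl read were 0.852, 0.381, 0.758 and 1.47 in old runners, 6.41, 11.2, 2.94 and 1.15 in old controls, 0.275, 0.518, 0.530 and 0.402 in young runners and 1.73, 0.993, 2.83 and 1.73 in young controls, so that young runners and young controls did not overlap and O4ex lay above Oc4. Ciart reads alone already did not overlap between the young groups, so this ratio is not separate evidence. Taken as the mean log2 level of Dbp and Ciart minus that of Arntl, the balance was -0.31 ± 0.72 in old runners, 2.04 ± 1.44 in old controls, -1.21 ± 0.40 in young runners and 0.57 ± 0.90 in young controls (SD, n = 4 each). That choice of genes was made after the data were seen. The mean log2 level of Dbp, Nr1d1, Ciart and Per3 minus that of Arntl and Npas2 was 2.15 ± 1.13 in old runners, 5.00 ± 2.004 in old controls, 2.93 ± 1.57 in young runners and 3.43 ± 1.38 in young controls (SD, n = 4 each). Young runners had the lowest mean for Dbp and for Ciart against Arntl, whereas old runners had the lowest in this wider measure, and old controls had the highest in both. The wider measure includes Npas2, which had 0 reads in Y1ex and in Oc1. Nr1d1 reads per Arntl read averaged 5.87 ± 2.26 in old runners, 11.3 ± 6.21 in old controls, 6.00 ± 0.578 in young runners and 6.15 ± 1.66 in young controls (SD, n = 4 each).

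**Figure D4:**
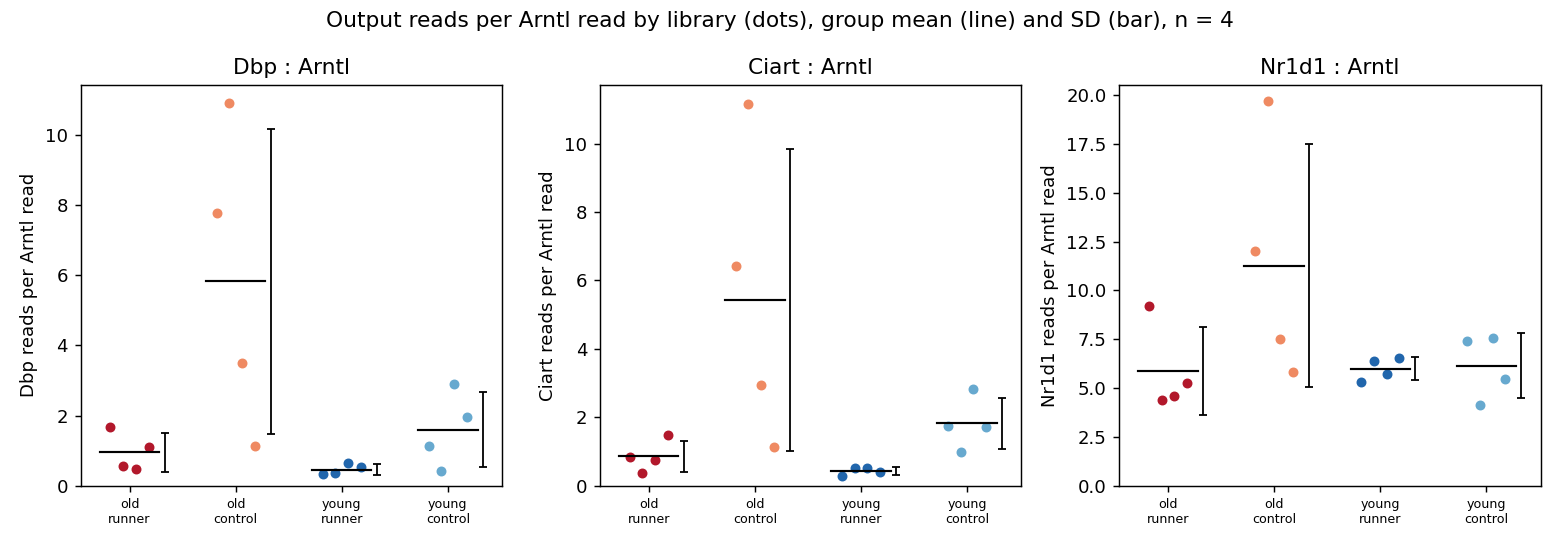
Reads of Dbp, Ciart and Nr1d1 per read of Arntl (vertical, linear) in each library (dots), for old runners, old controls, young runners and young controls, with the group mean (line) and SD (bar), n = 4 each. Young runners lay at 0.328 to 0.645 Dbp reads per Arntl read and old controls at 1.13 to 10.9.

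The other genes of the clock were read from lists. Of 20 further clock factors and kinases, 17 were tested in the fit averaged over ages and 2 passed, where 7.42% of all genes tested passed. Fbxw11, a ubiquitin ligase subunit that marks PER proteins for degradation, rose by 0.45 ± 0.13 (SE, adjusted p = 0.0492, limma), and Bhlhe40 (DEC1), the paralog of Bhlhe41, fell by 0.32 ± 0.09 on the log2 scale (adjusted p = 0.0395, limma). Bhlhe40 had 35669 ± 4063 normalised reads in old runners, 45343 ± 2594 in old controls, 30785 ± 4578 in young runners and 37390.1 ± 3220 in young controls (SD, n = 4 each). Clock itself had 1054 ± 455 in old runners, 804 ± 621 in old controls, 1168 ± 521 in young runners and 716.2 ± 457 in young controls (SD, n = 4 each), with a difference of 0.91 ± 0.53 (SE, adjusted p = 0.282, limma). Nr1d2, the paralog of Nr1d1, had a difference of -0.26 ± 0.24 (SE, adjusted p = 0.524, limma) and Cry2 of 0.30 ± 0.13 (adjusted p = 0.160, limma). Of 20 genes listed as clock outputs in muscle and other tissues, all 20 were tested and 2 passed, against the same 7.42% of all genes. Myod1, the myogenic factor that BMAL1 and CLOCK activate, rose by 1.37 ± 0.31 (SE, adjusted p = 0.0195, limma), and Wee1, a kinase of the cell cycle, fell by 0.75 ± 0.22 (adjusted p = 0.0449, limma). Myod1 had 21041 ± 5939 normalised reads in old runners and 11234 ± 4030 in old controls (SD, n = 4 each). It had 35298 ± 5664 in young runners and 13889 ± 13192 in young controls (SD, n = 4 each), where the SD was nearly as large as the mean. Tef and Hlf, which bind the D-box as DBP does, had differences of 0.10 ± 0.16 and 0.00 ± 0.28 (SE, adjusted p = 0.726 and 0.997, limma). The median difference was 0.03 over the 17 clock factors and -0.02 over the 20 outputs, against 0.07 over all genes tested. In each of the 4 pairs of groups, 0 genes of these 2 lists passed (limma), with 1 to 4 of the clock factors and 1 to 6 of the outputs at an unadjusted p under 0.05, against 4.91% to 17.4% of all genes.

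Glucocorticoids, calcium and cAMP signalling and temperature are known to set clock genes from outside, and a list of responsive genes for each was read in the same fit. Glucocorticoid-responsive genes had 0 of 14 past the threshold by limma, with 5 of 14 at an unadjusted p under 0.05, against 26.5% of all genes (median difference -0.07). Immediate early genes of cAMP and calcium signalling had 5 of 14 lower and 0 higher, where 7.42% of all genes passed in either direction (median -0.44), with Fos, a component of AP-1, at -1.06 ± 0.15 (SE, adjusted p = 0.00218, limma), and Ier2, Junb, Nr4a1 and Nr4a2 as the others. By sign, 11 of the 14 differences were negative and 3 were positive, among them Sik1 at 0.84 ± 0.25 (SE, adjusted p = 0.0516, limma). Heat shock factor targets had 1 of 8 higher (Bag3, a co-chaperone, 0.39 ± 0.10, adjusted p = 0.0352, limma) and 1 of 8 lower (Dnajb1, an HSP40 co-chaperone, -2.17 ± 0.28, adjusted p = 0.00167, limma). Their median difference was -0.11, and 7.42% of all genes passed. This average joins opposite signs: 7 of the 8 were lower in old runners (median -0.28) and 7 of the 8 higher in young runners (median 0.09). The running effect differed between ages for 0 of the 8 (limma). In the pairs of groups Fos and Ier2 passed in old fibres and Dnajb1 in young fibres, all lower in runners. These lists do not measure the signals themselves, and the cause of the differences in them was not tested.

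The genes whose levels were most like those of Arntl over the 16 libraries, among 10431 ranked by Pearson r, were Fam46c (r = 0.912), Rnf19b (0.907), Arhgap44 (0.902), Mex3c (0.899) and Polr3b (0.893), and the most opposed were Mtg1 (-0.861), Grpel2 (-0.807) and Micu3 (-0.803), where the median over all genes was 0.07. Most like Dbp were Pik3ip1 (0.894), Grpel2 (0.880), Lin52 (0.837), Rad1 (0.8292) and Hs3st5 (0.828), and most opposed Alpk2 (-0.901), Errfi1 (-0.885) and Rabgef1 (-0.882), around a median of -0.06. Of the other clock genes, Bhlhe40 had r = 0.817 with Dbp and -0.677 with Arntl, and Usp2, a deubiquitinase driven by the clock, had r = 0.683 with Dbp and -0.773 with Arntl. Usp2 had a running difference of -0.34 ± 0.11 (SE, adjusted p = 0.0560, limma). These correlations are descriptions over 16 libraries, whose levels can vary together with group, depth and amplification.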

How the data were processed

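Bulk RNA-seq of 16 myofiber libraries was analysed. Per the labels' protocols, 10 ng of total RNA was amplified with a SMART-Seq kit, which keeps no strand. Trim Galore, STAR, featureCounts of Subread and DESeq2 on mm10 are named, per the submitters' processing notes. The sources used here do not give versions, annotation or counting settings. The authors deposited log2 values, the variance-stabilising transformation of DESeq2, in 4 tables of 1 pair of groups each. Inverting it gave whole reads within 0.02 for 100% of values. These gave depth (30.7 to 67.4 M reads counted in genes), median-of-ratios size factors and normalised reads on 1 scale. Reads carry no molecular identifiers, so their counting error does not describe molecules.

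Pairs of groups were compared within a table by limma 3.58.1 under R 4.3.3 (lmFit, eBayes with trend, 2-sided; genes at least 1 above the table's floor in at least 4 libraries). Averages over ages or running and the interaction came from limma voom on the recovered reads (at least 50 normalised reads in at least 4 libraries). Benjamini-Hochberg adjustment ran over every gene tested in a comparison, and an adjusted p under 0.05 counted as a call. Correlations used permutation tests in Python 3.11.15. The procedure was tested on simulated data.

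The members, lists and tests were chosen with earlier results of these data known. The genes named are the members, list genes past the threshold, and the 5 most and 3 least correlated with Arntl and with Dbp. Clock, Nr1d2, Cry2, Tef, Hlf, Usp2 and Sik1 were named after their values were seen. Gene positions and exon lengths came from GENCODE M21. Runner columns were matched by title, O4ex and Y4ex and the control columns only to their group. Leukocyte and Schwann cell marker lists were also read: their summed medians were 986.8 and 24.3 normalised reads in old runners, 830.4 and 61.8 in old controls, 1247 and 31.3 in young runners and 1001.0 and 62.4 in young controls.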

Additional observations from a re-analysis of the deposited data

Results flagged for a closer look

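In 40 groups of 4 libraries (10 genes in 4 groups), 2 held a library far from the other 3, by a gap to its neighbour that, as a share of the range of the group, is above the 95% critical value of Dixon's test. Chance alone flags about 5% of such groups. Dbp in old control Oc4 had 2167 normalised reads, against 4631, 5074 and 5212 in the other old controls, and the gap was 0.865 of the range. The same library had the highest Arntl of the old controls (1926 normalised reads) and the lowest Ciart (2206). Bhlhe41 in old runner O3ex had 2094 normalised reads, against 1442, 1461 and 1480.2 in the other old runners, and the gap was 0.931 of the range.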

How the results depend on the processing

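Ciart and Dbp kept their calls in the 16-library fit in all 21 alternatives. Members called there were 4 with at least 200 reads, and 2 to 4 with single libraries left out (4 without Y3ex or Yc4), while genes called there ran from 292 without Y2ex to 1146 without Yc5 (main 846). For running in old fibres, genes called were 27 with a filter of 2 above the floor, 23 with median centring, 7 with no filter, 24 with quantile normalisation, 3 with voom, and from 1 without O2ex, Oc2 or Oc4 to 295 without Oc1 (main 12). For running in young fibres they were 143 with median centring, 24 with no filter, 228 with quantile normalisation, 13 with voom, and from 0 without Y2ex to 181 without Yc4 (main 81), and members called were 1 with no filter, 1 with voom and 0 to 2 with libraries left out. For age in controls genes called were 3 with no filter, 28 with quantile normalisation, 3 with voom, and from 3 without Oc1 to 52 without Yc4, with 0 to 1 members (main 11). For age in runners they were 0 to 3 with libraries left out. Age averaged over running gave 74 genes with the deposited values and from 17 without O3ex to 95 without Yc4, with 0 to 1 members (main 40). The interaction gave 0 to 1 genes. The cause of these changes was not tested.

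Runner columns carry the numbers 1 to 4 and control titles 5 to 8 at both ages. The numbers of the control columns do not all match those of the control titles. Numbers were therefore examined in runners only, and no block was fitted for controls. Same-numbered runners correlated at -0.24, 0.0924, -0.398 and -0.0441 in their deviations from the group means. No old runner correlated best with the young runner of its number, and among young runners only Y2ex did (0.0924 with O2ex, 0.089 with O4ex). The labels do not say what the numbers stand for, and these correlations cannot settle whether the libraries were paired. With a replicate block 0 genes were called for age in runners, against 2 without it.

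Signs turned for small differences only. Per2 in young fibres was -0.0229 with quantile normalisation and -0.00443 with voom, and Npas2 with age averaged over running was -0.0275 with library totals. With libraries left out, Per2 ran from -0.33 to 0.20 (running, old), -0.20 to 0.16 (running, young), -0.16 to 0.40 (age, controls), -0.12 to 0.16 (age, runners), -0.19 to 0.15 (running averaged), -0.0842 to 0.26 (age averaged) and -0.38 to 0.31 (interaction). Cry1 ran from -0.28 to 0.21 (age, controls), -0.29 to 0.0745 (age, runners), -0.25 to 0.067 (age averaged) and -0.31 to 0.33 (interaction). Bhlhe41 ran from -0.0413 to 0.24 (running, old), Per1 from -0.12 to 0.14 and Nr1d1 from -0.0194 to 0.15 (age, controls), Npas2 from -0.54 to 0.52 (age averaged) and Ciart from -0.17 to 0.45 (interaction).

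Correlations with Arntl came to -0.459 with group means removed and -0.555 without the 2 farthest libraries for Ciart, 0.141 and 0.150 for Per1, and, without the 2 farthest, 0.150 for Per2 and -0.293 for Bhlhe41. With libraries left out, r ran from 0.375 to 0.7105 for Arntl against Npas2, -0.195 to 0.195 for Arntl against Per1, -0.414 to 0.0474 for Arntl against Per2, -0.1114 to 0.596 for Arntl against Cry1, 0.4515 to 0.623 for Arntl against Nr1d1 and -0.122 to 0.339 for Arntl against Bhlhe41. The phase difference, young runners minus young controls, of Dbp, Nr1d1, Ciart and Per3 against Arntl and Npas2 ran from -1.05 to 0.0902. Npas2 had 0 reads in Y1ex and in Oc1, and its interval for running averaged over ages was -1.76 to 3.99.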
